A study of Homo sapiens with 8 samples.

Results

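Box C/D snoRNAs other than those of pre-rRNA cleavage, the SNORD12 family and the snoRNAs of SNHG1 were examined in the lists of RNA peaks bound by the C459A mutant and by the WT form of NOP2/NSUN1, the methyltransferase of the NSUN family that acts in the nucleolus. Members were all peaks whose annotation starts with SNORD, once the copies of SNORD3 (U3), SNORD118 (U8), SNORD13, the copies of SNORD14, SNORD12, SNORD12B, SNORD12C, SNORD22 and SNORD25 to SNORD31 had been left out. They were 46 of 287 peaks in the C459A list and 36 of 251 peaks in the WT list. These peaks lay on 44 snoRNAs in C459A and 33 in WT, 46 different snoRNAs in all. The annotation holds 273 SNORD symbols outside the same exclusions, 80 of them copies of SNORD115 and SNORD116, of which none had a peak.

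HEK293T cells, derived from human embryonic kidney, had received an expression plasmid for NOP2/NSUN1 with a FLAG tag and were lysed after 40 h without UV light. In miCLIP the C459A protein lacks the cysteine that releases the methylated RNA and so stays covalently joined to its substrate, whereas the WT protein does not. On snoRNAs, however, the authors reported no crosslinked sites and no potential methylations. They proposed that the protein likely binds box C/D snoRNAs without need of its methyltransferase activity. After RNase T1 and SDS-PAGE 8 libraries were sequenced, namely C459A IP, C459A size-matched input (SMInput), WT IP and WT SMInput, with 2 biological replicates of each. The tagged protein came from a plasmid in both groups, and no library of cells without it was analysed here. The paper states that mock precipitations yielded too little RNA for sequencing. By RT-qPCR it reported enrichment of box C/D snoRNAs with both proteins, but not of U6 or SNORA7A.

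Each peak carries 1 log2 ratio of IP to SMInput, called its log2 fold change here, and 1 adjusted p, both calculated by the authors with Peakachu from both replicates together. No spread between replicates can be given, no test of C459A against WT was possible, and the depth behind each value is unknown. Only peaks with at least a 2-fold change and an adjusted p under 0.05 are listed, so a snoRNA absent from a list has no value there, which is not a value of 0.

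Box C/D snoRNAs carry a box C near the 5′ end and a box D near the 3′ end, which fold together and are bound by SNU13, NOP56, NOP58 and the methyltransferase fibrillarin. Many also hold an inner box D′. The bases just upstream of box D or D′ pair with rRNA, and the rRNA base opposite the 5th base from the box receives a 2′-O-methyl group on its ribose. Most human snoRNAs of this kind are cut out of introns, often of genes for ribosomal or nucleolar proteins.

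The sequences carried these features. Box C (ATGATGA or GTGATGA, with at most 1 mismatch in the first 20 bases, on the RNA strand only) was present in 46 of the 46 snoRNAs, against 89.2% of 296 annotated SNORD symbols. Without a mismatch it was present in 26, or 56.5%, against 64.2% of the annotated symbols. Box D (CTGA) was present in 45 of them, all except SNORD97, against 96.6% of the annotated symbols. A perfect run of at least 10 base pairs with rRNA through the 5th base upstream of a box D or D′ was found in 35 of the 46, or 76.1%, against 37.5% of all annotated SNORD symbols. Among the annotated symbols outside the exclusions, the members and the SNORD115 and SNORD116 families, it was found in 66 of 147, or 44.9%. The known target of each member was written down from general knowledge, without a source in the files. The matched rRNA was among those so written for 34 of these 35. The written targets named an rRNA but no base, so matched positions were not compared with known ones. The exception, SNORD83A, had been taken as having no known target and matched 18S at A468. SNORD32A, written as a guide of both 18S and 28S, matched 28S only. SNORD111B, written for 28S, also had a run of 10 bases with 18S at U219, shorter than its run with 28S. All these matches describe sequence and do not show that a base is methylated in these cells.

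The snoRNAs of 1 host gene, NOP58, were chosen for display because all 4 of them had a peak and because they pair with overlapping bases of 18S rRNA. NOP58 itself encodes a core protein of box C/D snoRNPs. In the lines that follow capitals mark the run complementary to rRNA, and the coordinates are hg38, plus strand: SNORD70 at chr2:202276431-202276518, SNORD70B at chr2:202278108-202278192, SNORD11B at chr2:202291332-202291421 and SNORD11 at chr2:202293051-202293134.
SNORD70: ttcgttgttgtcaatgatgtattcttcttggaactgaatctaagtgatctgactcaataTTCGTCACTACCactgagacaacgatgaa
SNORD70B: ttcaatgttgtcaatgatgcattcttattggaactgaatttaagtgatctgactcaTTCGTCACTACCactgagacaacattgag
SNORD11B: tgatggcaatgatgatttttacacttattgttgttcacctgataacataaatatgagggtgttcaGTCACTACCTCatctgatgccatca
SNORD11: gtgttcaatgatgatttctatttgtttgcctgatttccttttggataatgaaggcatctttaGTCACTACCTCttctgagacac
18S bases 507 to 520: gaGgtAgtgacgaa
The capitals in the 18S line are G509, opposite the 5th base from box D in SNORD11 and SNORD11B, and A512, opposite it in SNORD70 and SNORD70B. The 18S and 28S sequences and their numbering are those of RNA45SN5 in RefSeq, and T stands for U.

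The SNORD18 copies of RPL4, a gene for a large-subunit ribosomal protein, and SNORD21 of RPL5 are shown because they target neighbouring bases of 28S from different host genes. SNORD18A lies at chr15:66503243-66503314, SNORD18B at chr15:66502020-66502091 and SNORD18C at chr15:66501250-66501318, all on the minus strand, and SNORD21 at chr1:92837289-92837383 on the plus strand.
SNORD18A: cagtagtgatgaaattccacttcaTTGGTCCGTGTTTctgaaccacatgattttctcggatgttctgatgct
SNORD18B: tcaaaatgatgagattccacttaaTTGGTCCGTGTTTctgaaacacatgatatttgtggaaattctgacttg
SNORD18C: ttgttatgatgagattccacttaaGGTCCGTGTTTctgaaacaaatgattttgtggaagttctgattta
SNORD21: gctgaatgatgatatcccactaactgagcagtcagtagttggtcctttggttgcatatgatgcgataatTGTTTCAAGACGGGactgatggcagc
28S bases 1313 to 1334: cccGtcttgaaacAcggaccaa
The capitals of the 28S line are G1316, the predicted base of SNORD21, and A1326, that of the 3 SNORD18 copies. The SNORD18 copies use a run upstream of box D′ and SNORD21 uses one upstream of box D.

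SNORD2, in an intron of EIF4A2 (an RNA helicase of translation initiation) at chr3:186784796-186784864 on the plus strand, had the smallest adjusted p of all the members in both lists. Its run pairs with 28S around G1522.
SNORD2: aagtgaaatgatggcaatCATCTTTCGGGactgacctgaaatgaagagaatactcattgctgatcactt

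The members had a median log2 fold change of 3.58 in the C459A list, from 1.38 (SNORD15A) to 6.51 (SNORD49A), and of 4.05 in the WT list, from 2.11 (SNORD33) to 7.16 (a chromosome peak of SNORD15B). Peaks on chromosomes are counted in these medians, and on transcripts alone the members had 3.60 in C459A and 3.89 in WT. Over all listed peaks the medians were 3.63 in C459A and 3.44 in WT. The median of the members thus lay near that of the list in C459A and above it in WT. The largest value of any RNA was 10.2 in C459A and 8.55 in WT. By log2 fold change the highest member peaks ranked 31st in C459A (SNORD49A) and 11th in WT (the chromosome peak of SNORD15B). SNORD2 ranked 36th of the C459A peaks and 15th of the WT peaks by log2 fold change. An adjusted p under 0.01 was reached by 34 of the 46 C459A peaks, or 73.9%, against 80.1% of all C459A peaks, and by 22 of the 36 WT peaks, or 61.1%, against 74.9% of all WT peaks. Members therefore passed this stricter threshold in a somewhat smaller share than the lists as a whole.

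Of annotated SNORD symbols of all kinds 20.9% had a peak in C459A and 16.6% in WT. For the symbols left by the exclusions the shares were 16.1% in C459A and 12.1% in WT, and without SNORD115 and SNORD116 they were 22.8% in C459A and 17.1% in WT.

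**Figure D1:**
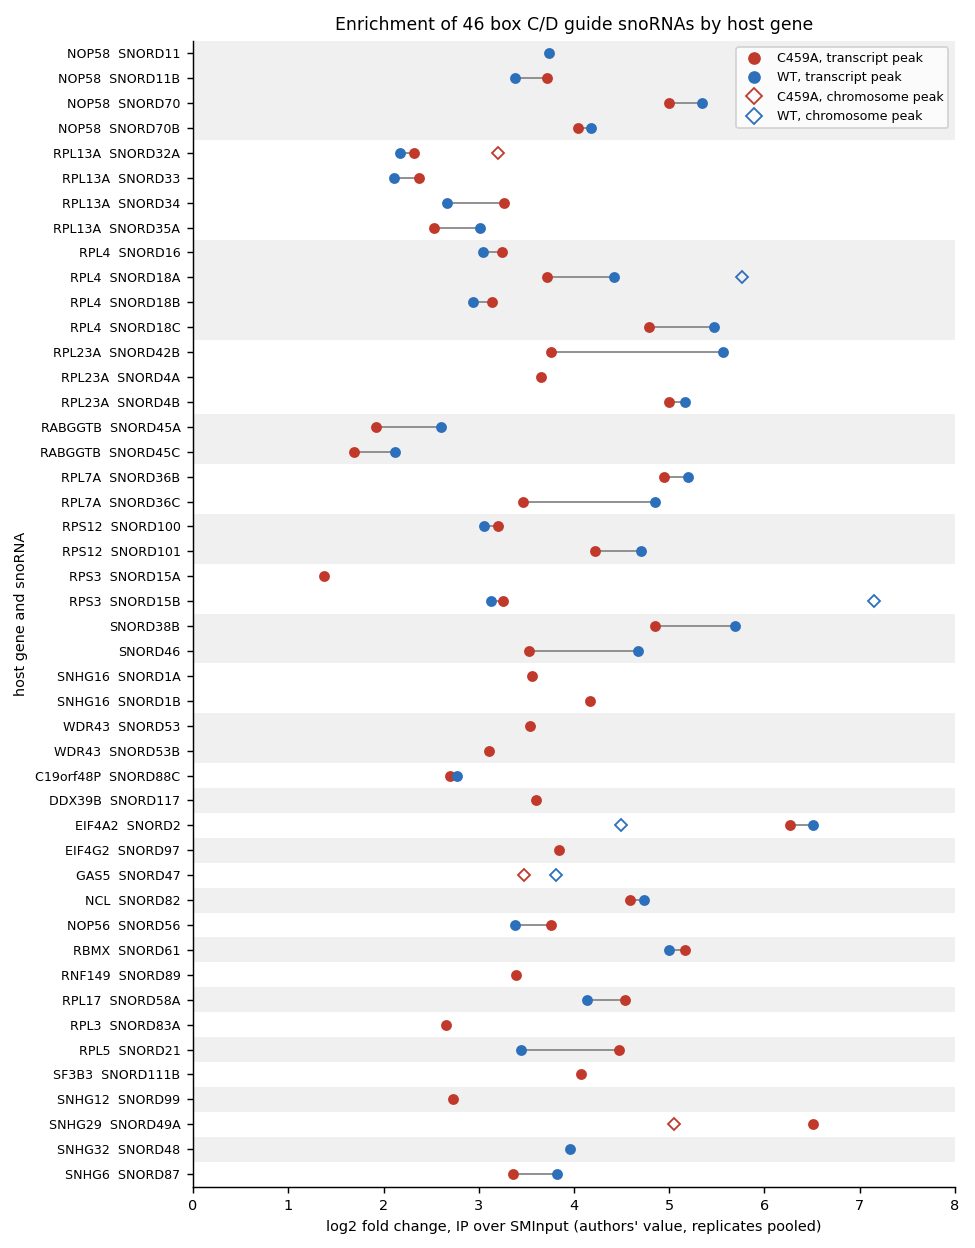
Log2 fold change of IP over SMInput (x axis, authors' values with the replicates pooled, so no error bars) for each of the 46 snoRNAs, ordered by host gene with bands by host, 1 of which is not named. Filled circles are peaks on the snoRNA transcript and open diamonds peaks on a chromosome, red for C459A and blue for WT, and a grey line joins the transcript peaks of 1 snoRNA. The RABGGTB snoRNAs sit at the low end in both constructs, and SNORD2 near 6.27 in C459A and 6.51 in WT.

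By host gene, 28 genes carried the 46 snoRNAs, and no host gene had a listed peak under its own name in either list. In the canonical transcript of the host 44 of the 46 lay in an intron and 0 in an exon. SNORD88C and SNORD89 lay within the host gene but outside its canonical transcript. Genes for ribosomal proteins held 22 members, with 22 listed in C459A at a median log2 fold change of 3.46 and 19 listed in WT at a median of 4.42. Nucleolar protein genes held 8, long non-coding RNA genes 7, other protein genes 6, translation factor genes 2 and the transcribed pseudogene C19orf48P 1.

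All 4 annotated snoRNAs of NOP58 were listed in at least 1 construct. The log2 fold change of SNORD70 was 5.00 in C459A and 5.34 in WT, and that of SNORD70B 4.04 in C459A and 4.18 in WT. SNORD11B had 3.72 in C459A and 3.38 in WT. SNORD11 was listed only in WT, at 3.74 with an adjusted p of 0.035 by Peakachu. SNORD70 and SNORD70B, which match A512, thus lay above the listed snoRNAs that match G509 in each list. NOP56, the gene for the partner protein of NOP58, held SNORD56, a guide for 18S, at 3.76 in C459A and 3.38 in WT, while its SNORD57, SNORD86 and SNORD110 had no peak.

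The other genes for nucleolar proteins were NCL and WDR43. SNORD82, from the nucleolin gene NCL, pairs with 18S at A1678 and had 4.58 in C459A and 4.73 in WT. SNORD53 and SNORD53B, from WDR43 (a factor of early pre-rRNA transcription and processing), were listed only in C459A, at 3.54 and 3.10. SNORD20 of NCL and SNORD92 of WDR43 had no peak.

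The 4 snoRNAs of RPL13A were all listed in both constructs, each below the median of the members in the same list. SNORD32A had 2.32 in C459A and 2.18 in WT, and SNORD33, a guide for 18S, 2.37 in C459A and 2.11 in WT. SNORD34 had 3.27 in C459A and 2.67 in WT, and SNORD35A 2.53 in C459A and 3.01 in WT. The host median was 2.53 in C459A, with the chromosome peak of SNORD32A counted, and 2.42 in WT. The adjusted p-values by Peakachu ranged widely, from 1.47e-07 (SNORD33) to 0.0143 (SNORD35A) in C459A and from 0.00191 (SNORD32A) to 0.0141 (SNORD35A) in WT.

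The snoRNAs of RPL4 spread more widely. SNORD18C had 4.79 in C459A and 5.47 in WT, SNORD18A 3.72 in C459A and 4.42 in WT, and SNORD18B 3.14 in C459A and 2.94 in WT. The order of the 3 copies was the same in both lists. SNORD16, the other snoRNA of the gene and a guide for A484 of 18S, had 3.25 in C459A and 3.04 in WT. SNORD21 of RPL5 had 4.47 in C459A and 3.44 in WT, a difference of 1.03 and the largest in favour of C459A.

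RPL23A held SNORD4A, SNORD4B and SNORD42B, which target U121 and U116 of 18S. SNORD4B had 5.00 in C459A and 5.17 in WT. SNORD4A was listed only in C459A, at 3.65. SNORD42B had 3.76 in C459A and 5.57 in WT, a difference of -1.81, the largest of any member in either direction. The other host-mate, SNORD42A, also matches U116 but had no peak.

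The remaining ribosomal protein genes gave 10 members. In RPL7A, SNORD36B had 4.95 in C459A and 5.20 in WT, and SNORD36C 3.46 in C459A and 4.85 in WT, with SNORD24 and SNORD36A unlisted. SNORD38B had 4.85 in C459A and 5.70 in WT, and SNORD46 3.53 in C459A and 4.67 in WT. These 4 snoRNAs were thus all lower in C459A than in WT. In RPS12, SNORD101 had 4.22 in C459A and 4.70 in WT, and SNORD100 3.20 in C459A and 3.05 in WT. In RPS3, SNORD15B had 3.25 in C459A and 3.13 in WT, and SNORD15A was listed only in C459A, at 1.38, the lowest member value. SNORD58A of RPL17 had 4.53 in C459A and 4.14 in WT. SNORD83A of RPL3 was listed only in C459A, at 2.65.

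Among genes for other proteins, RABGGTB (a subunit of the Rab geranylgeranyl transferase) held SNORD45A, with 1.92 in C459A and 2.60 in WT, and SNORD45C, with 1.69 in C459A and 2.13 in WT. These 2 snoRNAs had the longest perfect run with rRNA of all members, 16 bases against A159 of 18S, and values at the low end of the lists. Capitals mark that run in SNORD45C, at chr1:75787072-75787150, and in SNORD45A, at chr1:75787889-75787972, both on the plus strand.
SNORD45A: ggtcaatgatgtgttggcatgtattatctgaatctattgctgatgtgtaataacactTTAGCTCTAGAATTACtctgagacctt
SNORD45C: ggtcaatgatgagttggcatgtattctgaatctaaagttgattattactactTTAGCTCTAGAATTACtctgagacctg
Their copy SNORD45B had no peak. SNORD61 of RBMX, a guide for U1442 of 18S, had 5.17 in C459A and 4.99 in WT. SNORD111B of SF3B3 had 4.07, SNORD117 of DDX39B 3.60 and SNORD89 of RNF149 3.39, each in C459A only. SNORD88C of C19orf48P had 2.70 in C459A and 2.77 in WT, the smallest difference of any member.

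Long non-coding RNA genes held 7 members, of which 2 were in both lists. SNORD87 of SNHG6 had 3.36 in C459A and 3.82 in WT. SNORD47 of GAS5 had only chromosome peaks, at 3.47 in C459A and 3.81 in WT. None of the 7 further SNORD symbols that RefSeq places in GAS5 was listed. SNORD47 and these 7 lack a gene in the GENCODE release used. Whether the authors' references held their transcripts is not known. SNORD1A and SNORD1B of SNHG16 had 3.56 and 4.17, SNORD99 of SNHG12 had 2.73 and SNORD49A of SNHG29 had 6.51, all in C459A only. SNORD48 of SNHG32 was listed only in WT, at 3.96. The translation factor genes gave SNORD2 of EIF4A2, described with its sequence, with 6.27 in C459A and 6.51 in WT, and SNORD97 of EIF4G2, listed only in C459A, at 3.84.

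In the 28 host genes 77 SNORD symbols are annotated and 31 of them had no peak in either list, 8 of these known here only from RefSeq. Whether transcripts of these 8 were among the authors' references is not known. Of the 21 hosts with at least 2 annotated symbols, 5 had every one listed: NOP58, RPL13A, RPL4, RPS12 and RPS3. These hosts were taken because they hold a member, which raises both counts, and hosts without a member were not counted. Over all 273 annotated symbols outside the exclusions 46 were members.

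Both lists held 31 of the 46 snoRNAs, the C459A list alone held 13 and the WT list alone held 2. By peaks, 31 of the 46 C459A peaks, or 67.4%, overlapped a WT peak by at least 1 base, against 71.8% of all C459A peaks. Of the 36 WT peaks 31, or 86.1%, overlapped a C459A peak, against 82.5% of all WT peaks. The members were thus shared between the lists in much the same share as RNAs in general.

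The 13 snoRNAs of the C459A list alone were SNORD1A, SNORD1B, SNORD4A, SNORD15A, SNORD49A, SNORD53, SNORD53B, SNORD83A, SNORD89, SNORD97, SNORD99, SNORD111B and SNORD117. Their 14 peaks had a median adjusted p of 0.0106 by Peakachu, and 7 of them were under 0.01. The 32 C459A peaks of snoRNAs in both lists had a median adjusted p of 0.000656, with 27 under 0.01. The median log2 fold changes were close, 3.58 for the C459A-only peaks and 3.62 for the others. SNORD11 and SNORD48, the 2 of the WT list alone, had adjusted p-values of 0.035 and 0.0453, both near the limit of 0.05. Absence from a list is no test, and whether these snoRNAs differ between C459A and WT was not tested.

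For 30 snoRNAs a transcript peak was listed in both constructs. C459A was higher for 12 and lower for 18, and the median difference of C459A minus WT was -0.16 on the log2 scale. The differences ran from -1.81 (SNORD42B) to 1.03 (SNORD21), and 26 of the 30 were under 1 in size. Beyond 1 lay also SNORD36C at -1.39 and SNORD46 at -1.15. Across the 30 transcripts Pearson's r between the lists was 0.87 and Spearman's rho 0.89, as a description over transcripts that share their libraries. Of the 16 other box C/D transcripts with a peak in both lists C459A was higher for 13 and lower for 3, with a median difference of 0.37. Most of these 16 were U3 copies, U14 copies or SNORD12 family members, so they are not 16 unrelated RNAs. The largest differences in favour of C459A were those of SNORD12B (1.27), SNORD12 (2.63) and SNORD12C (5.33). This difference between the members and the other box C/D snoRNAs was not tested.

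By target, 17 snoRNAs were assigned to 18S (15 by the sequence match and 2 from general knowledge). Another 24 were assigned to 28S (20 by the match and 4 from general knowledge), and 5 have another or no known rRNA target. The assigned groups are called 18S guides and 28S guides here. SNORD83A stands among the 18S guides by its match alone, and SNORD32A was counted with the 28S guides only. The 18S guides had a median log2 fold change of 3.74 over 16 peaks in C459A and of 3.74 over 15 peaks in WT. The 28S guides had 3.53 over 25 peaks in C459A and 4.05 over 20 peaks in WT. The ranges were wide in both groups, 1.69 to 5.17 in C459A and 2.11 to 5.57 in WT for 18S guides, and 1.38 to 6.51 in C459A and 2.18 to 7.16 in WT for 28S guides, so the groups overlapped almost throughout. Of the 18S guides 14 of 17 were in both lists, and of the 28S guides 16 of 24.

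Of the 5 others only SNORD101 was in both lists. SNORD97, which guides a tRNA, and SNORD53B, SNORD89 and SNORD117, written as having no known target, were listed only in C459A. SNORD53B did have a perfect run of 9 bases with 28S at C3869, too short for the limit of 10. The 5 had a median of 3.60 in C459A, from 3.10 to 4.22. For these 5 the data do not show that they guide 2′-O-methylation of rRNA. SNORD33, SNORD35A, SNORD47, SNORD49A, SNORD56 and SNORD58A, taken as guides from general knowledge, also gave no perfect run of 10 bases.

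**Figure D2:**
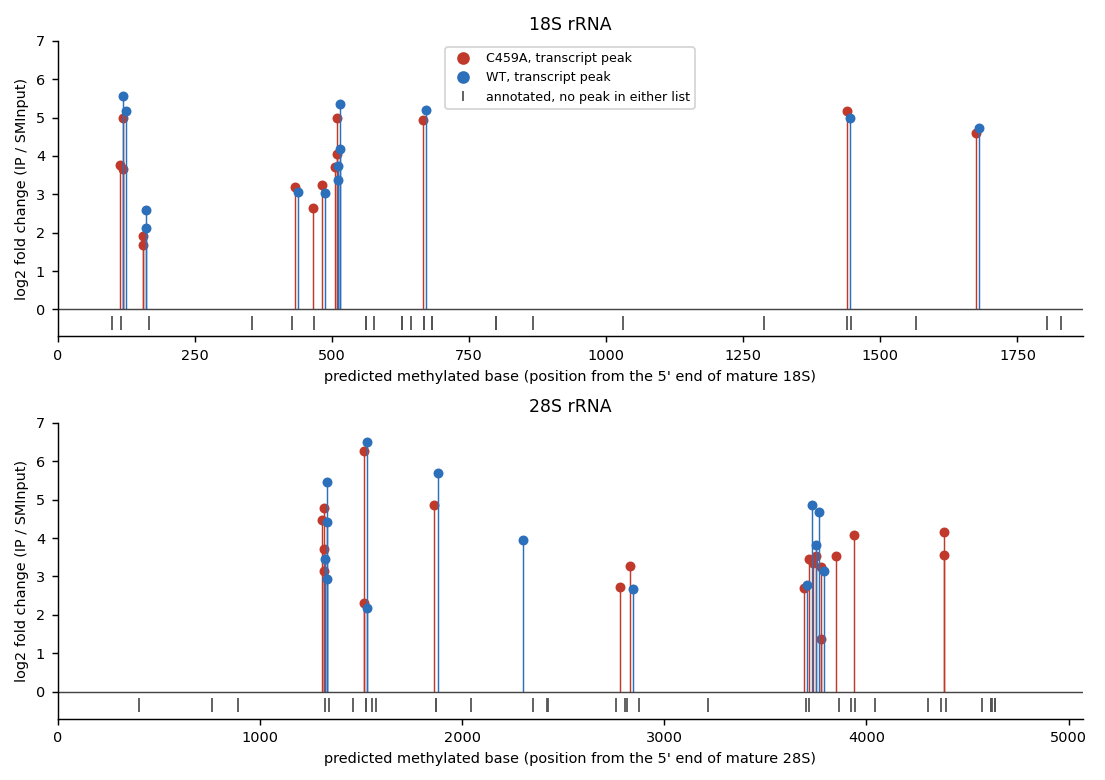
Log2 fold change of the snoRNA's transcript peak (y axis) against the predicted methylated base (x axis, bases from the 5′ end of mature 18S above and 28S below) for the 35 snoRNAs with a sequence match, red for C459A and blue for WT, drawn slightly apart. Grey ticks under the axis are annotated SNORD symbols outside the exclusions with a match and no peak in either list. Many members lie at 18S bases 116 to 159 and 436 to 512 and at 28S bases 1316 to 1524 and 3701 to 3944. These stretches were drawn after the positions were seen, and grey ticks fall in each of them as well.

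Of all annotated symbols outside the exclusions 101 had a match, and 35 of these, or 34.7%, were members. Many of the members' predicted bases fell in a few stretches of rRNA, which were drawn after the positions were seen. Copies with the same predicted base were counted separately, and unlisted symbols also matched within each stretch. The unlisted SNORD57 (A99 of 18S) and SNORD104 (C1340 of 28S) lay outside the drawn edges. Between bases 436 and 512 of 18S lay those of SNORD100 (G436), SNORD83A (A468), SNORD16 (A484) and the 4 snoRNAs of NOP58, 7 of the 8 annotated symbols that match this stretch, with the unlisted SNORD68 (U428) just outside it. The hosts of these 7 were RPS12, RPL3, RPL4 and NOP58. Between bases 116 and 159 of 18S lay those of SNORD42B, SNORD4A, SNORD4B, SNORD45A and SNORD45C, 5 of the 7 symbols that match from there to base 166. In 28S, SNORD21 and the SNORD18 copies were 4 of the 5 symbols between bases 1316 and 1326, and 2 of the 4 between bases 1522 and 1524 were members. These, SNORD2 (G1522) and SNORD32A (A1524) from different hosts, had predicted bases 2 apart. SNORD2 had 6.27 in C459A and 6.51 in WT against 2.32 in C459A and 2.18 in WT for SNORD32A. Between bases 3701 and 3944 of 28S lay those of SNORD88C (C3701), SNORD36C (A3724), SNORD87 (G3744), SNORD46 (A3760), SNORD15A and SNORD15B (A3785), SNORD53 (C3855) and SNORD111B (G3944), 8 of 13 annotated symbols that match there. The same run of SNORD53 also lay upstream of another possible box D′, which would place its base at G3859. Its copy SNORD53B had a run of 9 bases with C3869 upstream of box D. The predicted base of SNORD53 is therefore uncertain.

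The single remaining matches lay elsewhere. In 18S these were SNORD36B (A668), SNORD61 (U1442) and SNORD82 (A1678). In 28S they were SNORD38B (A1871), SNORD48 (C2292), SNORD99 (A2787), SNORD34 (U2837), and SNORD1A and SNORD1B (both G4392). None of the members matched 5.8S.

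By paralogue group, the 46 snoRNAs fell under 36 of 107 annotated SNORD numbers, and 9 numbers had at least 2 listed copies. Listed copies were 59.7% (SNORD36B and SNORD36C) to 87.5% (SNORD70 and SNORD70B) identical. Copies with the same target base could differ in value. SNORD18B minus SNORD18C was -1.65 in C459A and -2.53 in WT on the log2 scale, at 84.7% identity. SNORD70 exceeded SNORD70B by 0.95 in C459A and by 1.17 in WT, and SNORD45A exceeded SNORD45C by 0.23 in C459A and by 0.48 in WT. SNORD36B and SNORD36C are copies by name only, since they match A668 of 18S and A3724 of 28S, and differed by 1.49 in C459A and 0.35 in WT.

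SNORD45A and SNORD45C share an unbroken run of 29 bases, SNORD70 and SNORD70B one of 24 and SNORD15A and SNORD15B one of 23. The shortest reads kept by the authors were 18 nt, so short reads from these runs cannot be told apart by sequence and values of such copies are uncertain to that degree. The WDR43 pair (a run of 21 bases), SNORD18A with SNORD18B, and SNORD18B with SNORD18C (19 bases each) are also in this class. Only pairs of listed copies were compared, so runs shared with unlisted copies are not known.

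Most peaks spanned the whole snoRNA. At least 90% of the transcript was covered by 36 of 43 transcript peaks in C459A and by 30 of 32 in WT, with median coverage of 98.9% in C459A and 100% in WT. Box C was inside 41 of 43 peaks in C459A and 32 of 32 in WT. The run that pairs with rRNA was inside 32 of the 33 C459A peaks on snoRNAs with a match, and inside 26 of 27 in WT. As most peaks fill nearly the whole transcript, these counts follow largely from peak extent. They do not locate binding within the snoRNA. For the other box C/D transcripts with a single peak, 12 of 15 in C459A and 10 of 13 in WT were covered to at least 90%.

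**Figure D3:**
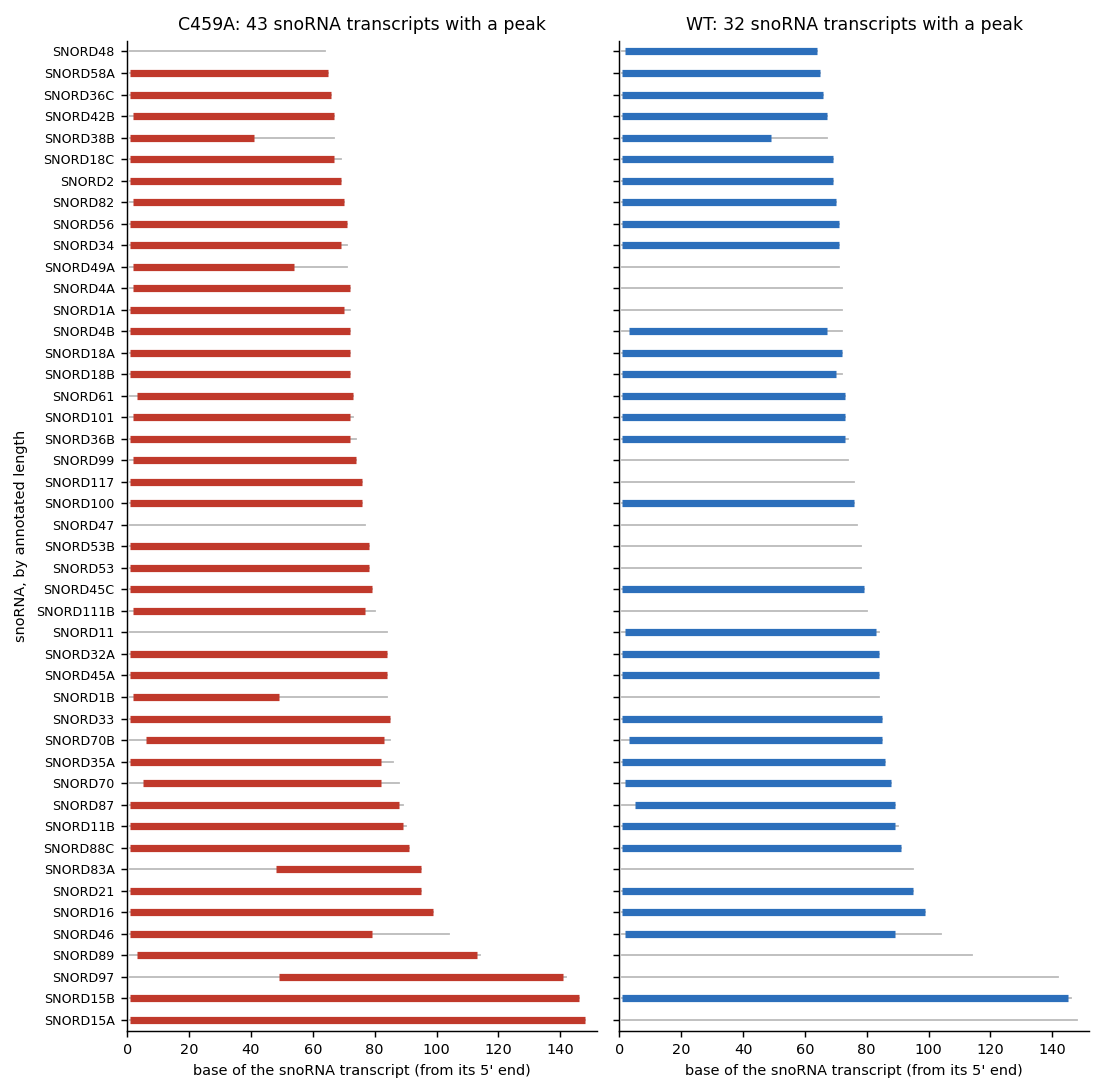
Extent of each transcript peak (thick bars, red for C459A at left and blue for WT at right) on the annotated snoRNA (thin grey line), in bases from the 5′ end, ordered by length from 64 bases (SNORD48) to 148 bases (SNORD15A). Most bars fill the line, and the short bars are SNORD38B, SNORD49A, SNORD1B, SNORD83A, SNORD97 and SNORD46. A grey line alone means that no transcript peak is listed for that construct.

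The exceptions fell into those that stopped short of the 3′ end and those that began inside the RNA. SNORD38B was covered from base 1 to 41 in C459A and to 49 in WT, of 67 bases. SNORD46 was covered from base 1 to 79 in C459A and from base 2 to 89 in WT, of 104 bases, which left out box D in both constructs, and of its run for A3760 (bases 83 to 93) all in C459A and part in WT. SNORD49A (bases 2 to 54 of 71) and SNORD1B (bases 2 to 49 of 84), in C459A only, also lacked box D. SNORD70 in C459A (bases 5 to 82 of 88) fell just under 90% as well, at 88.6%. Conversely SNORD83A (bases 48 to 95 of 95) and SNORD97 (bases 49 to 141 of 142), both in C459A only, lacked box C. SNORD83A kept its run for A468, at bases 74 to 84. The peaks of the snoRNAs listed only in C459A are shown here, in capitals. SNORD49A is at chr17:16440036-16440106 and SNORD1B at chr17:76561109-76561192, on the plus strand, and SNORD83A at chr22:39315213-39315307 and SNORD97 at chr11:10801467-10801608, on the minus strand.
SNORD49A: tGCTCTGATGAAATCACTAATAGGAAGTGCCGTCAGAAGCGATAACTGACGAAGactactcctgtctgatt
SNORD1B: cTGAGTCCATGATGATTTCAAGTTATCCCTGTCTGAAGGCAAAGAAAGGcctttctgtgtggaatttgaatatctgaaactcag
SNORD83A: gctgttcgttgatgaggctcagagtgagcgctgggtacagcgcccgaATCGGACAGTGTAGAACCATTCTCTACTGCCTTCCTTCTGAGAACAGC
SNORD97: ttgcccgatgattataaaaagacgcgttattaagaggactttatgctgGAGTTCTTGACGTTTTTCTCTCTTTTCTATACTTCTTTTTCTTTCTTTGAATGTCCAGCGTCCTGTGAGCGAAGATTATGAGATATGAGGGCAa

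Peaks called on a chromosome rather than on the snoRNA transcript were few, 3 in C459A and 4 in WT. SNORD47 was listed at chr1:173864368-173864447 in C459A and at chr1:173864362-173864449 in WT. In C459A the others were SNORD32A (chr19:49489966-49490047, 3.20) and SNORD49A (chr17:16440037-16440074, 5.05). In WT they were SNORD15B (chr11:75404418-75404487, 7.16), SNORD18A (chr15:66503235-66503313, 5.76) and SNORD2 (chr3:186784796-186784867, 4.49). None reached more than 4 bases before the annotated 5′ end or 8 bases past the 3′ end, so these few peaks lay almost wholly within the mature snoRNA. Those of SNORD49A in C459A and of SNORD15B in WT covered only 53.5% and 45.9% of it. Peaks called on a snoRNA transcript cannot reach into the intron and say nothing about it. The chromosome peak of SNORD15B held bases 1 to 67 of 146, and its transcript peak stood at 3.13 in WT. Values on the 2 kinds of reference were listed separately. The medians given over members, hosts and targets nevertheless count every peak of either kind once.

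**Figure D4:**
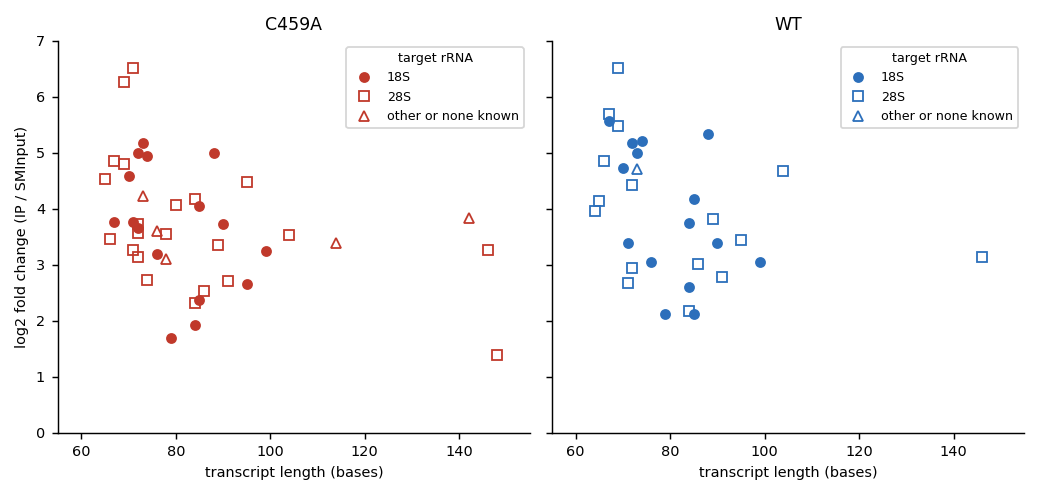
Log2 fold change of the transcript peak (y axis) against transcript length in bases (x axis) for C459A at left and WT at right, with filled circles for 18S guides, open squares for 28S guides and open triangles for the others. Values fall with length in both constructs, with medians of 4.58 in C459A and 5.16 in WT for transcripts of up to 70 bases, and 3.25 in C459A and 3.13 in WT above 90 bases.

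Shorter snoRNAs had larger values. Over 43 transcripts in C459A Pearson's r between length and log2 fold change was -0.37 and Spearman's rho -0.46, and over 32 transcripts in WT they were -0.37 and -0.45. Without the transcripts of at least 120 bases r was -0.35 in C459A (40 transcripts) and -0.41 in WT (31 transcripts). For the share of G and C bases r was -0.44 in C459A and -0.46 in WT. These correlations describe transcripts of the same libraries, which are not replicates, and the part of length or base composition in the values was not tested.

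Set beside the other snoRNAs of the lists, the members had a median of 3.58 in C459A and 4.05 in WT. The 6 peaks of U3 copies in each list had medians of 4.31 in C459A and 4.22 in WT, the 6 of U14 copies 4.30 in C459A and 3.67 in WT, and the 4 of U8 and U13 4.08 in C459A and 3.73 in WT. The SNORD12 family had 7.31 in C459A (4 peaks) and 4.22 in WT (3 peaks), and the SNHG1 snoRNAs 2.89 in C459A (4 peaks) and 2.81 in WT (2 peaks). H/ACA snoRNAs, the guides of pseudouridylation, gave 7 peaks in C459A with a median of 2.47 and 1 peak in WT at 2.86. The members made up 16.0% of the C459A peaks and 14.3% of the WT peaks, and their range took in the medians of all these groups except that of the SNORD12 family in C459A.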

How the data were processed

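Per the labels and the study's methods, adaptors were removed with cutadapt, fastp put the UMI into the read name, reads under 18 nt were dropped, and the hg38 genome and repetitive element families served as alignment references. Peakachu called the peaks, with a maximum insert size of 220. No tool version was given in the sources used here. For each peak and construct the authors deposited the log2 ratio of IP to SMInput with both replicates pooled. The deposited −log10 adjusted p was turned back into an adjusted p. The files hold no counts, so depth is unknown and no interval can be given.

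Places, host genes (the annotated gene on the same strand that contains the snoRNA) and sequences came from GENCODE release 44 and hg38, and SNORD47, rRNA and 8 host-mates from RefSeq, whose table gives no strand. All 45 other snoRNAs were found in GENCODE. Runs pairing with rRNA were searched upstream of the last CTGA (box D) and of any CTGA, or form with 1 mismatch, between boxes C and D (box D′). The longest run was kept, with ties settled by mismatches in the box, then by box, rRNA and position. The search was tested on simulated data. No statistical test was made. Copies share a SNORD number. Identity is over a global alignment.

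Members and lists were chosen with earlier results of these data known, and a supplementary table of these peaks was known when the rule for named snoRNAs was written. That rule takes snoRNAs of host genes or numbers with at least 2 listed copies, of 1 list only, among the 10 largest fold changes or 10 smallest adjusted p-values, with chromosome peaks, with peaks over less than 90% of the transcript or with no rRNA target. All 46 are given, but 1 host gene is not reported here. Alternatives were stricter thresholds, 1 kind of reference, overlap of 50%, coverage of 80% and other run lengths. Python 3.11.15, numpy 2.4.6, pandas 2.3.3, scipy 1.17.1 and matplotlib 3.10.9 were used.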

Additional observations from a re-analysis of the deposited data

How the results depend on the processing

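No paired analysis was possible because both replicates are pooled into 1 value per peak, and no replicate could be left out. With an adjusted p under 0.01, 33 snoRNAs remained listed in C459A and 22 in WT, and 20 in place of 31 were in both lists. With at least a 4-fold change, 4 in place of 2 were in the WT list alone, since SNORD45A and SNORD45C then leave the C459A list. Peaks on chromosomes alone covered 3 snoRNAs in C459A and 4 in WT. A perfect run of at least 12 bases was found in 16 snoRNAs in place of 35, against 38 with at least 9 bases and 37 with G-U pairs counted and at least 12 bases. With G-U pairs, however, 70.9% of all annotated SNORD symbols also had a match. The medians moved by less than the spread among members under all these thresholds, and the counts of overlap and of coverage stayed within 1.5 times. The lists give no depth, so whether an unlisted snoRNA was too rare to be called cannot be told apart from its not being enriched.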

Other observations

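In the C459A list SNORD4B and SNORD70, which come from different hosts, carry the same log2 fold change (5.00) and the same adjusted p (0.00114) by Peakachu. The WT chromosome peak of SNORD2 (4.49, adjusted p of 0.0295) likewise shares both values with a peak of another RNA. Which read counts lie behind these values is not known.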
